A study of Homo sapiens with 4 samples.

Results

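The 10 genes described here encode the core of the transforming growth factor-beta (TGF-beta) system: the ligands TGFB1, TGFB2 and TGFB3, the receptors TGFBR1, TGFBR2 and TGFBR3, the latent TGF-beta binding proteins LTBP1, LTBP2 and LTBP3, and TGFBI, a secreted matrix protein named for its induction by TGF-beta. They were taken from the deposited expression table by gene symbol, and each symbol had 1 row among the 58365 rows. The set of genes was chosen with earlier results of these data known. The table came from 4 RNA-seq libraries of H1 cells, an established human embryonic stem cell line, at day 2 of hematopoietic differentiation. All 4 cultures received, per the labels, activin A at 40 ng/ml and BMP4 at 50 ng/ml in Custom mTeSR1 medium (the methods of the study give these concentrations the other way round). The DMSO group (2 libraries) received the solvent, and the IWP2 group (2 libraries) received IWP2, a small molecule that blocks the acyltransferase Porcupine and thereby Wnt secretion, at a dose not given in the sources used here. Nothing in the labels says whether the libraries of a group came from separate cultures, so p-values measure the spread between these libraries, which may be technical.

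TGF-beta ligands are secreted in a latent form, held by their own propeptide and tethered to the matrix through the LTBPs, and must be released by integrins, proteases or thrombospondin before they can signal. The free ligand binds TGFBR2, which phosphorylates TGFBR1, the type I kinase also called ALK5, and TGFBR1 then phosphorylates SMAD2 and SMAD3. TGFBR3, or betaglycan, presents the ligand, and TGFB2 in particular, to TGFBR2. Activin A, which was in the medium of every culture, uses other receptors but the same SMAD2 and SMAD3. In this study the comparison addressed how blocking Wnt signaling alters the transcriptome during mesoderm induction, and links between Wnt and TGF-beta signaling were among its questions.

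Expression is given as FPKM, fragments scaled to transcript length and library size, which allows genes to be compared per length. The values of low genes moved in steps of 1 fragment, from which the depth was estimated at about 17970000 to 22160000 fragments per library, and the values of the 10 genes rested on about 29.3 to 3125 fragments each. The 4 libraries correlated at 0.938 to 0.981 (Pearson, across tested genes on the log2 scale, genes not being independent replicates). Differences were tested with limma on log2(FPKM + 1) over the 15980 rows with a mean of at least 0.5 FPKM, and called at a Benjamini-Hochberg adjusted p below 0.05. Fold changes below are ratios of mean FPKM, whereas log2 differences are on the log2(FPKM + 1) scale and understate changes of low genes. Some markers were read beside the label of the cultures. In the DMSO libraries the mesoderm genes MIXL1 (278 and 317 FPKM), EOMES (138 and 153 FPKM) and APLNR (380 and 512 FPKM) were high. The endothelial genes PECAM1 and CDH5 stayed below 0.5 FPKM in all 4 libraries. MIXL1, EOMES, PECAM1 and CDH5 were named after their values were seen, so this is no independent check. Other endothelial markers were present with DMSO, KDR at 53.2 and 60.4 FPKM and TEK at 3.53 and 3.14 FPKM. The endoderm marker SOX17 was at 155 and 104 FPKM with DMSO. Pluripotency markers differed widely in level with DMSO. POU5F1 was at 751 and 571 FPKM and LIN28A at 258 and 248 FPKM. NANOG was at 23.0 and 9.54 FPKM, and SOX2 was near the floor at 0.193 and 0.174 FPKM.

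Within this group of genes 2 changes passed the test. TGFBR1 fell to 48.9% of its DMSO level with IWP2, and LTBP1 rose 1.44-fold. Thus 2 of the 10 genes were called, 1 in each direction, against a background of 13.2% of all tested genes (5.81% higher and 7.35% lower with IWP2). The values of the groups did not overlap for 8 of the 10 genes, which held for 58.6% of all tested genes. The median log2 difference was -0.16 over the 10 genes and -0.01 over all tested genes. An exact permutation test of 2 against 2 libraries cannot give a two-sided p below 0.333, so all tests rest on the spread pooled across genes by limma.

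**Figure D1:**
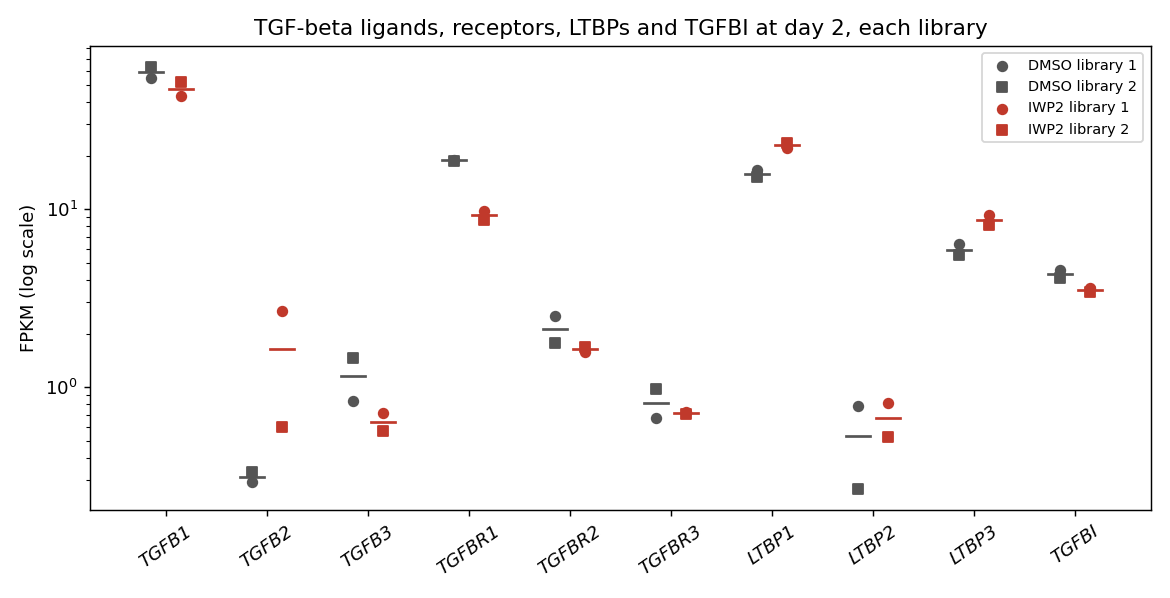
FPKM (log axis) of each of the 10 genes in the 2 DMSO libraries (grey) and the 2 IWP2 libraries (red), with circles for library 1, squares for library 2 and bars for group means. TGFBR1 sits near 19 FPKM in both DMSO libraries and below 10 FPKM in both IWP2 libraries, and TGFB2 is the gene whose IWP2 libraries lie farthest apart on this log axis.

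Sequence upstream of the start of 3 genes is shown, because TGFBR1 and LTBP1 carried the called changes and TGFB2 the largest ratio between the FPKM of the treated libraries. The windows are the 250 bases before the first RefSeq start listed for each gene (GRCh38.p14), read 5′ to 3′ on the gene's strand, with matches to the TCF/LEF core in capitals. TCF/LEF proteins are the DNA-binding partners of beta-catenin in Wnt signaling. The TGFBR1 window is chr9:99104863-99105112 (plus strand), that of TGFB2 is chr1:218345086-218345335 (plus strand) and that of LTBP1 is chr2:32946703-32946952 (plus strand).
TGFBR1: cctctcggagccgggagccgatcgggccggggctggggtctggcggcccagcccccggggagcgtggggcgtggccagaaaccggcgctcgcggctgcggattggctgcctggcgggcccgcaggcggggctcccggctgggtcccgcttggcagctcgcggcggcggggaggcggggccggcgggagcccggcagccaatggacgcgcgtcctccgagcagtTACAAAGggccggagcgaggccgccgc
TGFB2: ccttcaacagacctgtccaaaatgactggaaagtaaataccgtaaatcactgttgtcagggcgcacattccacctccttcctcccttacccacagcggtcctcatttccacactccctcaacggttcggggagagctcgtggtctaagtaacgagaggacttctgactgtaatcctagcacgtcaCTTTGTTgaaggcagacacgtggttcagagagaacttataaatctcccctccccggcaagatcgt
LTBP1: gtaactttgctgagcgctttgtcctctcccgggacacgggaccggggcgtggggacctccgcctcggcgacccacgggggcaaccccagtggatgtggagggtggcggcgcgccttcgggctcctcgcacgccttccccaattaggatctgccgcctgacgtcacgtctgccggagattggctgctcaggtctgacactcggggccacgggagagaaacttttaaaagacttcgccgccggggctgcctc

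The motif was searched on either strand as the letters CTTTGAA, with T allowed in place of each of the last letters, so that the final pair was any combination of A and T. It was present in the first window of 2 of the 10 genes, TGFBR1 (first base 27 before the start, on the opposite strand) and TGFB2 (first base 65 before the start), and in 12.1% of 27305 first windows of this length. None of the 10 windows held the SMAD palindrome GTCTAGAC, found in 0.176% of windows, and 7 of 10 held the short SMAD site AGAC on either strand, which 77.6% of all windows hold. A match is a description of letters and was not tested for binding. TGFBR1 has 8 listed windows, and the other 7 held no match. The table gives 1 value per gene, so the start used in these cells is not known.

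Among the receptors, TGFBR1 (ENSG00000106799.12, chr9:99104038-99154192, plus strand, GRCh38, protein coding) was at 19.0 and 18.7 FPKM in the DMSO libraries and 9.71 and 8.71 FPKM in the IWP2 libraries. Every IWP2 value was well below every DMSO value, and the groups were far apart relative to the spread within them (means 18.8 ± 0.205 and 9.21 ± 0.706 FPKM, SD, n = 2 each). The log2 difference was -0.96 (SE 0.105, 95% interval -1.23 to -0.69, limma adjusted p = 0.00728), below the 5th percentile of all tested genes at -0.94. About 1089 to 2497 fragments lay behind each value. The log2 difference stayed between -1.03 and -0.89 when any 1 library was left out, but adjusted p then rose to between 0.0668 and 0.107, and it was 0.0514 when no filter on low values was applied.

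TGFBR2 (ENSG00000163513.17, chr3:30606502-30694142, plus strand), the ligand-binding type II receptor, was at 2.50 and 1.77 FPKM with DMSO and 1.58 and 1.68 FPKM with IWP2. The IWP2 values lay just below the lower DMSO value, and the difference did not pass the test (log2 difference -0.24, SE 0.184, adjusted p = 0.445). TGFBR3 (ENSG00000069702.10, chr1:91680343-91906335, minus strand) was at 0.667 and 0.972 FPKM with DMSO and 0.724 and 0.707 FPKM with IWP2. Its groups overlapped (log2 difference -0.08, 95% interval -0.56 to 0.40, adjusted p = 0.824), and the sign turned to 0.04 without DMSO library 2.

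TGFBR1 thus made up most of the receptor transcripts per length in every library. It was 85.7% and 87.2% of the summed FPKM of the 3 receptors with DMSO, and 80.8% and 78.5% with IWP2. The receptor sum was 22.1 and 21.4 FPKM with DMSO and 12.01 and 11.1 FPKM with IWP2. The ratio of TGFBR1 to TGFBR2 was 7.59 and 10.6 in the DMSO libraries and 6.15 and 5.19 in the IWP2 libraries. In both groups the type I receptor transcript therefore exceeded the type II transcript, by a smaller ratio with IWP2. In bulk RNA, fewer cells expressing a gene and less RNA per cell cannot be told apart.

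Among the latent binding proteins, LTBP1 (ENSG00000049323.15, chr2:32946972-33399509, plus strand), which links the latent ligand to matrix fibrils, was at 16.5 and 15.2 FPKM with DMSO and 22.1 and 23.6 FPKM with IWP2. Of the 7329 exon bases of LTBP1, 249 are shared with AC019127.1 on the opposite strand, for which no value was found. Both IWP2 values of LTBP1 were above both DMSO values, with group means of 15.8 ± 0.923 and 22.8 ± 1.05 FPKM (SD, n = 2 each). The log2 difference was 0.50 (SE 0.0985, 95% interval 0.25 to 0.76, limma adjusted p = 0.0341). With the library number added to the limma fit as a block, adjusted p became 0.0570. The direction was the same under all 13 alternatives, but the call was not: adjusted p was 0.0853 with no filter, 0.0609 without the mean-variance trend, and 0.0932 to 0.225 when any 1 library was left out.

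LTBP3 (ENSG00000168056.15, chr11:65538805-65558930, minus strand), another carrier of latent TGF-beta, was at 6.36 and 5.50 FPKM with DMSO and 9.30 and 8.09 FPKM with IWP2. The size of the difference, a ratio of means of 1.47, was close to that of LTBP1, but it did not pass the test (log2 difference 0.49, SE 0.135, adjusted p = 0.0843). LTBP2 (ENSG00000119681.11, chr14:74498170-74612378, minus strand), a matrix protein of this family that does not bind latent TGF-beta, was low, at 0.788 and 0.269 FPKM with DMSO and 0.813 and 0.528 FPKM with IWP2. Its DMSO libraries differed by more than its groups did (log2 difference 0.14, 95% interval -0.49 to 0.78, adjusted p = 0.749), and without DMSO library 2 the sign turned to -0.10.

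LTBP4, the remaining family member and not among the 10 genes, had the highest FPKM of the LTBPs, at 33.7 and 45.8 FPKM with DMSO and 34.7 and 37.9 FPKM with IWP2 (log2 difference -0.11, adjusted p = 0.693). LTBP1 took 28.7% and 22.7% of the summed LTBP FPKM with DMSO and 33.04% and 33.7% with IWP2. The share of LTBP4 was 58.8% and 68.6% with DMSO and 51.8% and 54.0% with IWP2. In these values LTBP1 gained share in both IWP2 libraries while LTBP4 stayed the major form.

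**Figure D2:**
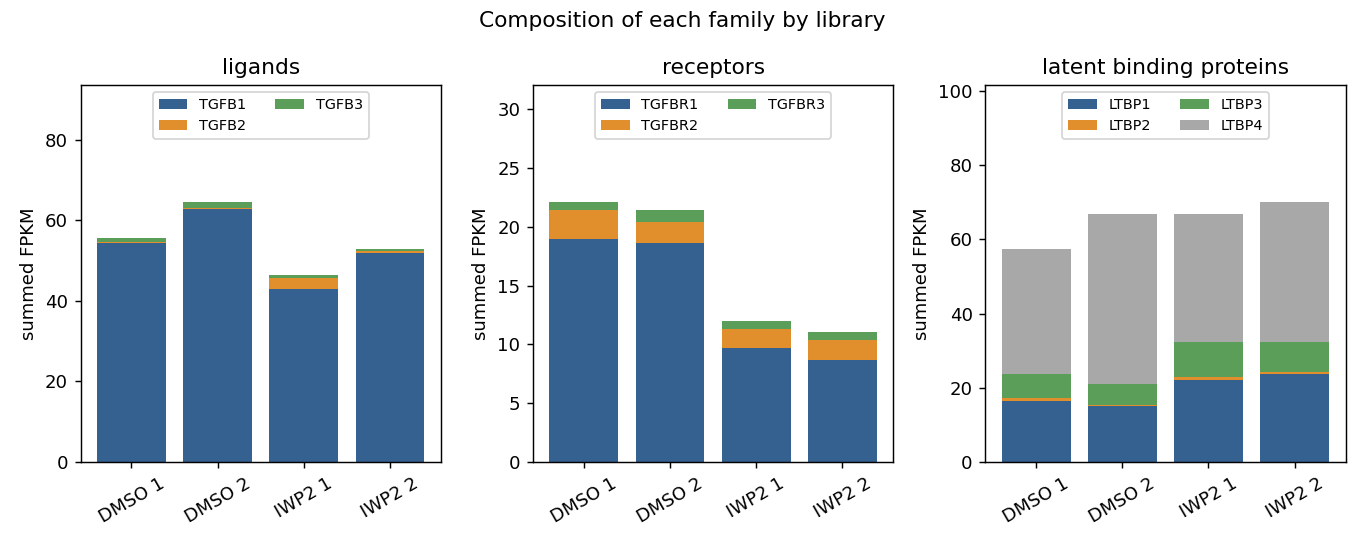
Summed FPKM of the ligands, the receptors and the LTBPs in each library, stacked by gene, with axes starting at 0. TGFB1 fills almost all of every ligand bar, the receptor bars drop from about 22 to about 12 FPKM through TGFBR1, and the LTBP1 segment is taller in both IWP2 libraries.

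Among the ligands, TGFB1 (ENSG00000105329.9, chr19:41301587-41353911, minus strand) was the major form and had the highest FPKM of the 10 genes in every library, at 54.5 and 62.8 FPKM with DMSO and 43.1 and 51.9 FPKM with IWP2. Both IWP2 values lay below both DMSO values, yet the nearest pair differed by less than the spread within either group, and the test was not passed (log2 difference -0.30, SE 0.128, 95% interval -0.63 to 0.03, adjusted p = 0.204). Over its exons, 215 of 3238 bases are shared with HNRNPUL1 on the opposite strand, which was at 115 to 121 FPKM in all 4 libraries. Some of the TGFB1 reads could therefore belong to that gene if strand was not recorded, and how many was not estimated.

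TGFB2 (ENSG00000092969.11, chr1:218346235-218444619, plus strand) was low with DMSO, at 0.295 and 0.332 FPKM, and reached 2.69 FPKM in IWP2 library 1 but 0.599 FPKM in IWP2 library 2. These values correspond to about 30.1 fragments in each DMSO library and to about 301 and 58.0 fragments in the IWP2 libraries. The group means differed 5.24-fold, but 1 library decided this: the log2 difference of 0.89 (SE 0.415, adjusted p = 0.241) became 0.28 without IWP2 library 1 and 1.49 without IWP2 library 2. TGFB2 passed the filter on low values only through the IWP2 group, and no alternative gave a call. Of its 5151 exon bases, 1371 are shared with TGFB2-OT1 on the same strand, which was listed at no more than 7.36e-05 FPKM in any library.

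TGFB3 (ENSG00000119699.7, chr14:75958099-75982991, minus strand) was at 0.832 and 1.46 FPKM with DMSO and 0.714 and 0.565 FPKM with IWP2. Of its 4914 exon bases, 163 are shared with TGFB3-AS1 on the opposite strand. That gene was at 0.485 FPKM in DMSO library 2, where TGFB3 was highest, and at 0 in the other libraries. The groups did not overlap, but the DMSO libraries were farther apart than the nearest values of the groups (log2 difference -0.38, SE 0.219, adjusted p = 0.334). TGFB1 accordingly made up 98.0% and 97.2% of summed ligand FPKM with DMSO and 92.7% and 97.8% with IWP2. The share of TGFB2 was 0.530% and 0.513% with DMSO, 5.78% in IWP2 library 1 and 1.13% in IWP2 library 2, so the treated libraries lay farther apart than the groups at their nearest.

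TGFBI (ENSG00000120708.16, chr5:136028895-136063818, plus strand), an adhesion protein of the extracellular matrix, was at 4.53 and 4.12 FPKM with DMSO and 3.61 and 3.44 FPKM with IWP2. Both IWP2 values were lower than both DMSO values, but the difference did not pass the test (log2 difference -0.23, SE 0.133, 95% interval -0.57 to 0.11, adjusted p = 0.325). The ratio of LTBP1 to TGFB1, the called carrier and the major ligand, was 0.302 and 0.242 with DMSO and 0.513 and 0.455 with IWP2.

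In order of level, the DMSO libraries ran from TGFB1 through TGFBR1, LTBP1, LTBP3, TGFBI and TGFBR2 to TGFB3, TGFBR3, LTBP2 and TGFB2. Neighbours did not overlap from TGFB1 down to TGFB3, whereas TGFB3 overlapped TGFBR3, TGFBR3 overlapped LTBP2, and LTBP2 overlapped TGFB2. With IWP2 the order changed at the second place: LTBP1 was above TGFBR1 in both libraries, and TGFBR1 overlapped LTBP3. TGFB2, the lowest with DMSO, overlapped TGFBR2, TGFBR3, TGFB3 and LTBP2 with IWP2.

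**Figure D3:**
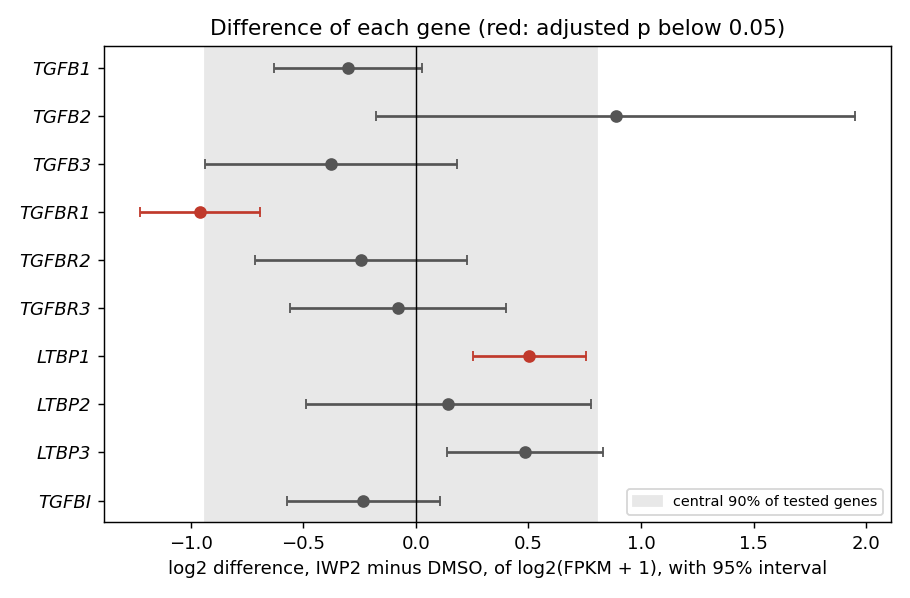
Log2 difference between IWP2 and DMSO, on log2(FPKM + 1), of each gene with its 95% interval from limma (red for adjusted p below 0.05), over a grey band that holds the central 90% of tested genes. TGFBR1 at -0.96 lies at the lower edge of the band, LTBP1 at 0.50 lies inside it, and TGFB2 has the widest interval.

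The rest of the pathway was read from lists of genes with known roles. Over all tested genes, 5.81% were called higher and 7.35% lower with IWP2, which is the background for every list count below. Of 19 tested genes listed for ligand latency and activation, which include genes that process the precursor or bind ligand, 3 rose and 8 fell (median log2 difference -0.43). FMOD, fibromodulin, a small proteoglycan that binds TGF-beta, fell from 3.57 and 4.33 FPKM to 0.0648 and 0.0450 FPKM (adjusted p = 0.00327). The fibrillins, which form the fibrils that anchor LTBPs, also fell: FBN2 went from 114 and 130 to 44.8 and 33.9 FPKM (adjusted p = 0.00523), and FBN1 from 6.71 and 5.73 to 1.84 and 1.25 FPKM (adjusted p = 0.00926). LRRC32, or GARP, which tethers latent TGF-beta to the cell surface, was 3.66-fold lower with IWP2 (adjusted p = 0.00923).

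In the opposite direction THBS1, thrombospondin 1, which can activate latent TGF-beta, rose from 3.29 and 2.24 to 9.54 and 8.44 FPKM (adjusted p = 0.0109). FURIN, the protease that cleaves the TGF-beta precursor, rose 1.43-fold (adjusted p = 0.0342), and the integrin subunit ITGB1 rose 1.37-fold (adjusted p = 0.0367). Genes for activators also fell, among them the integrin subunit ITGB8 (3.38-fold, DMSO over IWP2, adjusted p = 0.0248) and the metalloproteinase MMP14 (2.04-fold, adjusted p = 0.00409). The higher calls dropped from 3 to 1 without the mean-variance trend. The list had 1 higher and 3 lower without DMSO library 1, 0 and 3 without DMSO library 2, and 0 and 0 without IWP2 library 1 or 2.

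Among 14 genes for receptor partners, 1 rose and 2 fell (median log2 difference 0.01), against 5.81% and 7.35% of all tested genes. ACVRL1, or ALK1, an alternative type I receptor, fell from 3.73 and 4.16 to 0.295 and 0.305 FPKM (adjusted p = 0.00369). DAB2, an adaptor that links the receptors to SMADs, was 2.58-fold lower (adjusted p = 0.0263), and BAMBI, a decoy receptor, was 1.38-fold higher (adjusted p = 0.0467). The co-receptor ENG, endoglin, was at 3.60 and 3.92 FPKM with DMSO and 5.70 and 5.06 FPKM with IWP2, which did not pass the test (adjusted p = 0.114). The call of BAMBI was lost without the mean-variance trend and when any 1 library was left out. The 2 lower calls became 1 without DMSO library 1 or 2 and 0 without IWP2 library 1 or 2.

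Of 7 genes for SMAD transducers and their partners, 2 fell and none rose (median log2 difference -0.10). SMAD2 fell from 51.7 and 45.5 to 30.8 and 31.7 FPKM (adjusted p = 0.0195), and its DNA-binding partner FOXH1 fell 1.57-fold (DMSO over IWP2, adjusted p = 0.0211). SMAD3 was at 15.5 and 11.4 FPKM with DMSO and 9.72 and 8.95 FPKM with IWP2 (adjusted p = 0.139). SMAD4, the common partner, was at 39.2 and 37.5 FPKM and at 35.7 and 38.1 FPKM, with overlapping groups (adjusted p = 0.733). Leaving out any 1 of the 4 libraries brought the 2 calls of this list to 0.

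Of 10 feedback regulators and corepressors, 1 rose and 1 fell (median log2 difference -0.02), against 5.81% and 7.35% of all tested genes. LDLRAD4, an inhibitor of SMAD phosphorylation, was 3.11-fold lower with IWP2 (adjusted p = 0.0118), and PMEPA1, an inhibitor of the same kind, was 1.35-fold higher (adjusted p = 0.0425). The inhibitory SMAD7 was at 42.3 and 36.7 FPKM with DMSO and 29.4 and 32.2 FPKM with IWP2 (adjusted p = 0.109). The call of PMEPA1 was lost under TPM scaling and without the mean-variance trend, and both calls were lost when any 1 of the 4 libraries was left out.

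Of 26 tested genes that TGF-beta induces in other cells, 8 rose and 8 fell (median log2 difference -0.30). CTGF and CYR61, secreted matricellular proteins that are also targets of YAP, rose 18.03-fold and 8.19-fold (adjusted p = 0.00101 and 0.00204). FN1, fibronectin, rose from 235 and 153 to 794 and 769 FPKM (adjusted p = 0.00612).

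Among the called genes of this list, the log2 difference was most negative for the transcription factors SNAI2 (18.4-fold, adjusted p = 0.00120), ZEB2 (15.6-fold, adjusted p = 0.00635) and SNAI1 (7.13-fold, adjusted p = 0.00106), and the cadherin CDH2 (4.73-fold, adjusted p = 0.000686). These drive or mark epithelial-mesenchymal transition, and the fold is DMSO over IWP2. Matrix genes of the list stood on both sides: FN1 rose, whereas COL4A1, a basement membrane collagen (2.70-fold, adjusted p = 0.0107), and SPARC, a matrix glycoprotein (1.448-fold, adjusted p = 0.0184), fell. The counts of the list depended on the libraries: without DMSO library 1 there were 6 higher and 5 lower, without DMSO library 2 there were 4 and 6, and without IWP2 library 1 or 2 there were 0 and 1.

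Of 13 tested genes of the activin and nodal branch, 1 rose, 6 fell and 6 were not called (median log2 difference -0.80). The list mixes ligands, antagonists, receptors and co-receptors, so its counts give no direction for signaling. The ligand NODAL was not called, at 12.2 and 6.07 FPKM with DMSO and 9.02 and 9.81 FPKM with IWP2 (limma adjusted p = 0.858). The secreted antagonist CER1 fell 50.2-fold, from 1612 and 2048 to 38.6 and 34.2 FPKM (adjusted p = 0.000310). LEFTY1 fell 5.74-fold (adjusted p = 0.00653), CFC1, a nodal co-receptor, 5.26-fold (adjusted p = 0.0279), and FST, follistatin, 3.82-fold (adjusted p = 0.00120). GDF3, a related ligand, rose 2.17-fold (adjusted p = 0.0169). The higher call was lost when any 1 library was left out, and the lower calls became 4 without DMSO library 1, 5 without DMSO library 2 and 1 without IWP2 library 1 or 2.

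**Figure D4:**
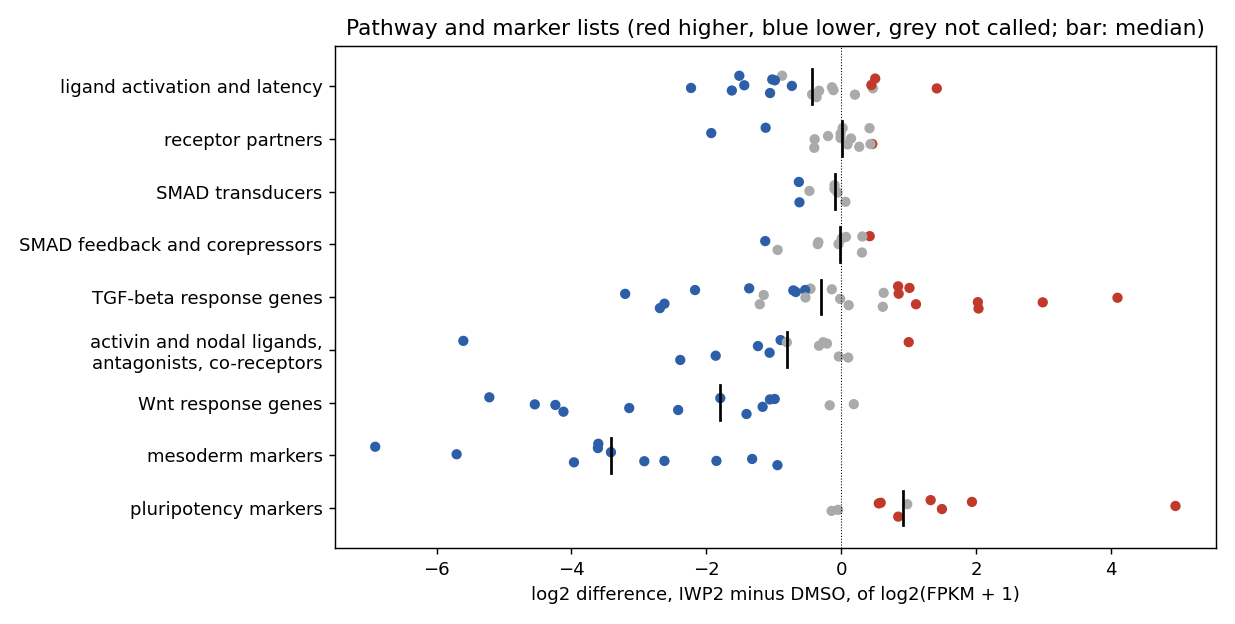
Log2 difference between IWP2 and DMSO, on log2(FPKM + 1), of every tested gene in 9 lists (red higher, blue lower, grey not called, black bar the list median). Genes of the TGF-beta response list lie on both sides of 0, whereas the called Wnt response and mesoderm genes all lie below it and the called pluripotency genes above it.

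Markers of cell state and of Wnt signaling moved with the treatment beside these results. Of 13 Wnt response genes, 11 fell and none rose, led by SP5 (53.2 and 47.0 to 0.379 and 0.363 FPKM, limma adjusted p = 0.000310), LGR5, DKK1 and NKD1. All 11 tested mesoderm markers fell, with the list sum at 1177 and 1498 FPKM in the DMSO libraries and 156 and 178 FPKM in the IWP2 libraries, led by APLNR, MESP1, MESP2 and FOXF1. Of 10 pluripotency markers, 7 rose and none fell, led by SOX2 (0.193 and 0.174 to 35.6 and 36.1 FPKM, adjusted p = 0.000310), CDH1, POU5F1 and TERF1. The list sum went from 1405 and 1225 to 2799 and 2805 FPKM, mostly through POU5F1, which went from 751 and 571 to 1854 and 1844 FPKM. Without IWP2 library 1 the Wnt, mesoderm and pluripotency calls became 5, 5 and 2, without IWP2 library 2 they became 5, 4 and 2, without DMSO library 1 they became 7, 10 and 5, and without DMSO library 2 they became 8, 8 and 3. The 2 groups therefore differed in cell state as well as in treatment, and the part of that in the differences of TGFBR1 and LTBP1 was not tested.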

How the data were processed

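RNA was extracted with Trizol and libraries were made with an Illumina TruSeq RNA kit from H1 cells at day 2. The authors deposited 1 table of FPKM values, 1 column per library and 1 row per gene. The header does not name the unit. The values were taken as FPKM. Their sums differed between libraries, from 616418 to 653850, whereas values scaled to a fixed sum, such as TPM, would not differ. The submitters' processing notes name BWA, Bowtie and RSEM without versions, and hg19, but 56554 of the 58102 rows with a GENCODE v29 identifier carry that gene's GRCh38 position (starts counted from 0), so GRCh38 is given here. Columns headed -IWP2 were taken as the DMSO group, and libraries are numbered as in the header. FPKM values are scaled to library size, so they are relative within a library.

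Rows with a mean of at least 0.5 FPKM over the 4 libraries were tested with limma 3.58.1 in R 4.3.3 (group only, mean-variance trend, two-sided) on log2(FPKM + 1), with Benjamini-Hochberg adjustment over all 15980 rows. The procedure was tested on simulated data. The value of 1 fragment was the median of FPKM times length over single-transcript genes within a preset range, which bounds the depth estimate. Fragments behind a value were estimated as FPKM times the longest GENCODE transcript length over the value of 1 fragment, and are approximate. Promoter windows came from RefSeq, and all 10 genes matched. Named genes were the 10 genes and, from each list, up to 4 called genes with the largest log2 difference in each direction, plus SMAD2, SMAD3, SMAD4, SMAD7, LTBP4 and ENG. Another gene that the rule names is not reported here. The members and lists were chosen with earlier results of these data known, and MIXL1, EOMES, PECAM1, CDH5, COL4A1, SPARC, ITGB8, MMP14, SOX17, DCN, MYH11, CGB5 and XAGE2 were named after their values were seen. The same holds for NANOG, LIN28A, NODAL, ISL1 and VTCN1. Alternatives were other pseudocounts, filters, scalings and variance priors, a replicate block, and leaving out each library.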

Additional observations from a re-analysis of the deposited data

How the results depend on the processing

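TGFBR1 was called under 8 of 9 alternatives other than leaving out a library, and LTBP1 under 6 of 9. With no filter on low values, 118 genes were higher and 263 lower with IWP2 (929 and 1175 in the main analysis), and of the 10 genes 0 were higher and 0 lower. LTBP1 was the gene lost without the variance trend, leaving 0 higher. With the replicate block, 842 genes were higher and 1059 lower, and of the 10 genes 0 were higher, as the adjusted p of LTBP1 became 0.0570, while 1 stayed lower. Nothing in the labels pairs libraries of the same number, and the correlation of same-number deviations was 0.142 over tested genes. The FPKM ratio at 1 fragment was nonetheless most regular between the libraries numbered 1, and less so between those numbered 2, as given at the end. The reason was not tested. Leaving out 1 library gave 18 to 286 genes higher and 76 to 410 lower, and 0 of the 10 genes in either direction; each such fit has 1 library in 1 group, which is assumed to vary like the other group. Without IWP2 library 2 the counts were 18 and 76, without IWP2 library 1 26 and 93, without DMSO library 2 125 and 307, and without DMSO library 1 286 and 410. The log2 difference of TGFBR3 ranged from -0.20 to 0.04 and that of LTBP2 from -0.10 to 0.39 with 1 library left out, turning sign in both cases without DMSO library 2 (TGFBR3 0.0414), and the cause was not tested. Among the pathway lists, the response, activin and nodal, Wnt, SMAD transducer, mesoderm and pluripotency counts stayed within 1.5 times under all alternatives other than no filter and leaving out a library, while those of ligand activation and latency moved in 1 of 16, of receptor partners in 2 of 16, of feedback regulators in 4 of 16 and of endothelial markers in 1 of 16 such counts. With the block, the calls of BAMBI and PMEPA1 were lost and endothelial lower calls became 1. With no filter, higher and lower calls were 0 and 2 for ligand activation, 0 and 1 for receptor partners, 0 and 0 for SMAD transducers and for feedback regulators, 3 and 4 for response genes, 0 and 3 for activin and nodal, and 4 and 0 for pluripotency markers. The 8 genes other than TGFBR3 and LTBP2 had the same sign under every alternative run. The filter of 1 FPKM left TGFB2, TGFB3, TGFBR3 and LTBP2 untested. These low genes rested on about 29.3 to 301 fragments per library.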

Other observations

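Other cell type lists also held called genes, beside 5.81% of all tested genes called higher and 7.35% called lower. Of 5 tested endothelial markers 3 fell with IWP2, among them VWF (1.81 and 1.29 to 0.369 and 0.378 FPKM, limma adjusted p = 0.0452). KDR, a VEGF receptor of early mesoderm as well as endothelium, was at 53.2 and 60.4 FPKM with DMSO and 38.6 and 35.7 FPKM with IWP2 (adjusted p = 0.0237). Of 6 tested definitive endoderm markers 3 fell, led by FOXA2 (18.8-fold, adjusted p = 0.00993), while SOX17 was at 155 and 104 FPKM with DMSO and 79.7 and 94.9 FPKM with IWP2 (adjusted p = 0.167).

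Of 10 listed amnion and trophoblast markers 4 were tested, and 3 of these rose: KRT7 (8.29-fold, adjusted p = 0.00470), TFAP2A (2.39-fold, adjusted p = 0.0118) and GABRP (4.92-fold, adjusted p = 0.0146). ISL1 was not called, at 6.51 and 7.10 FPKM with DMSO and 6.06 and 6.63 FPKM with IWP2 (adjusted p = 0.690). VTCN1 was too low to be tested, at 0.113 and 0.0241 FPKM with DMSO and 0.0390 and 0.189 FPKM with IWP2. The trophoblast genes CGB5 and XAGE2 were listed at 0 in all 4 libraries. Of 8 tested fibroblast and smooth muscle markers 3 rose (TAGLN, CNN1 and THY1) and 1, LUM, fell 20.7-fold (adjusted p = 0.00494). DCN was listed at 0 in 3 libraries and MYH11 stayed below 0.12 FPKM. Other genes of this list were well expressed with DMSO: TAGLN at 516 and 428 FPKM, THY1 at 89.1 and 83.0 FPKM, and CNN1 at 40.9 and 38.2 FPKM.

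These calls depended on the libraries. The endothelial lower calls became 0 when any 1 library was left out, and the endoderm lower calls became 2 without DMSO library 1 or 2 and 0 without IWP2 library 1 or 2. The amnion and trophoblast higher calls became 1 without DMSO library 1 or 2 and 0 without IWP2 library 1 or 2. The fibroblast and smooth muscle higher calls became 0 without any 1 library, and LUM lost its call without IWP2 library 1 or 2. With no filter on low values, 1 gene of these lists was called, a lower one of the fibroblast and smooth muscle list.

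The value of 1 fragment also differed in regularity between pairs of libraries. Over single-transcript genes at 1 fragment in both, the FPKM ratio of DMSO library 1 to IWP2 library 1 had quartiles of 1.1012 and 1.1013 (69 genes), whereas that of DMSO library 1 to DMSO library 2 had quartiles of 0.887 and 0.892 (81 genes). For DMSO library 2 to IWP2 library 2 the quartiles were wider, at 1.0666 and 1.0687 (69 genes). For DMSO library 1 to IWP2 library 2 they were 0.9463 and 0.9498 (60 genes).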
